A study of Homo sapiens with 12 samples.

Results

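The DNA replication and S phase genes described here are 49 genes that encode the origin licensing factors, the replicative helicase, the sliding clamp, the replicative polymerases, the enzymes of nucleotide supply and the proteins that handle chromatin at the fork. They were chosen by name, as a list of replication genes, with earlier results of these data known. The rows of all 49 were found among the 58735 rows of the deposited count table. The libraries come from THP1, an established human leukaemia monocytic cell line labelled as wild type, in 4 groups of 3. In the first group THP1 cells stayed in complete endothelial medium without endothelial cells (THP1 mono-culture). In the other 3 groups, 400000 THP1 cells per well sat in a transwell insert with 1 µm pores above 500000 human umbilical vein endothelial cells (ECs), so that secreted factors could pass while the cells stayed apart. The ECs were control ECs (DMSO, the vehicle), ECs made senescent beforehand with etoposide, a topoisomerase II poison that breaks DNA (senECs), or senECs that had also received epigallocatechin gallate, the main catechin of green tea (EGCG-treated senECs). The ECs were washed after these treatments and before they met the THP1 cells. After 24 h every THP1 culture, mono-culture included, was taken off and stimulated for 2 h with LPS at 100 ng/ml, and total RNA was then isolated, so each value below comes from LPS-stimulated cells. The replicates carry the numbers 1, 2 and 3 in mono-culture and control ECs and 1, 2 and 5 in senECs and EGCG-treated senECs, and values are given in that order. The labels name them as separate samples without saying whether they were separate cultures, so the p-values measure the spread between these samples.

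DNA replication begins in G1, when the origin recognition complex, CDC6 and CDT1 load the MCM2 to MCM7 helicase ring onto origins. At the G1/S transition CDC45 and the GINS complex join the ring to form the active CMG helicase. DNA polymerase α with primase then starts new strands, and polymerases δ and ε extend them behind the PCNA clamp, which the RFC complex loads. Most of these genes are targets of the E2F transcription factors and are transcribed in late G1 and S phase, so in a population of cycling cells their RNA follows how many cells are in or near S phase. In bulk RNA, a change in that share and a change in RNA per cell cannot be told apart.

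Total counts per library ranged from 15439836 to 22092600, and the counts of replicates of a group differed by more than sampling noise (chi-square per degree of freedom 9.23 to 33.7). The THP1 identity was checked against 12 monocytic markers, all of which had counts in every group (summed level 1023 to 1636 CPM). In each group 11 of the 12 averaged more than 1 CPM. CD68 had only 2 to 16 counts per library (0.108 to 0.857 CPM), and MPO was low at 1.93 to 6.27 CPM. CPM is the count of a gene scaled to a common library size, with library sizes adjusted by the TMM method. The 12 endothelial markers summed to 21.6 to 33.6 CPM in the 12 libraries, of which EGFL7 alone held 17.8 to 30.4 CPM, and CDH5, which encodes VE-cadherin, had 0 or 1 count per library. All 49 replication genes were well covered, with 235 counts for the lowest gene in its lowest library, and all 49 passed the minimum of 10 counts over the 12 libraries that left 25873 genes for testing.

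Compared per exon length, the replication genes covered a wide span of levels. The value used for this is FPKM, the CPM of a gene divided by the kilobases of its exons, and each is given as the mean of the 12 libraries with their range. The exons of all annotated transcripts of a gene are merged for this length, which can exceed that of the transcripts present. Of the helicase subunits, MCM3 (133, 116 to 143) and MCM7 (106, 90.97 to 124) were the highest of all 49 genes, and their ranges overlapped. MCM4 (78.1, 68.1 to 82.4) and MCM6 (59.2, 51.9 to 65.7) followed. MCM2 (43.1, 38.6 to 48.5) and MCM5 (38.6, 33.6 to 44.4) were the lowest of the 6 ring subunits and overlapped each other. The 6 subunits stand in equal numbers in the ring, while these values were unequal. Their order depends on the merged exon length, which is 7338 bases for MCM5, 6973 for MCM4 and 3650 for MCM3. By mean CPM, MCM4 (544) was the highest of the 6, and MCM5 (283) stood above MCM6 (244) and MCM2 (211). Each loader was lower than the mean of any ring subunit, with CDT1 at 31.5 FPKM (23.8 to 37.05), ORC1 at 27.4 (22.6 to 31.05), CDC6 at 18.03 (15.1 to 20.2) and ORC6 at 13.2 (10.9 to 15.04). MCM10, which helps to activate the loaded helicase, was at 7.83 FPKM (6.77 to 9.15).

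Among the other roles the order of levels per length was as follows. CDC45 led the activation factors at 29.6 FPKM, above GINS1 (16.5), GINS4 (14.1), GINS2 (10.8) and GINS3 (4.29). The clamp itself, PCNA, had 74.2 FPKM (64.7 to 91.3), while the 5 subunits of its loader ran from RFC3 at 32.3 down to RFC5 at 15.7. POLD2, the small subunit of polymerase δ, was the highest polymerase gene at 44.3 FPKM, and POLA2, the accessory subunit of polymerase α, was the lowest of all 49 genes at 2.86 (2.36 to 3.72). Lagging-strand processing was led by the flap endonuclease FEN1 at 63.6 FPKM, nucleotide supply by thymidine kinase TK1 at 78.9 FPKM, and the chromatin group by SLBP, the histone mRNA stem-loop binding protein, at 72.2 FPKM. E2F1 (27.02 FPKM) stood above the cyclin E genes CCNE1 (16.8) and CCNE2 (11.5).

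**Figure D1:**
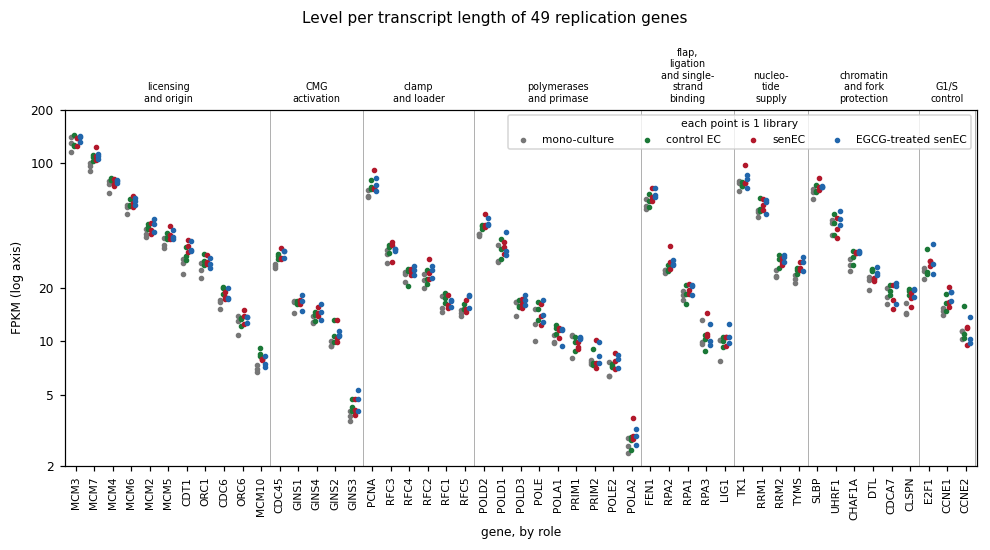
Level of each of the 49 replication genes in FPKM (log axis), ordered by role and, within a role, by mean level, with 1 point per library coloured by group (n = 3 libraries per group). MCM3 is at the top with a mean of 133 and POLA2 at the bottom with 2.86, and the 12 points of a gene lie close together on this axis.

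The promoters of these genes were read for 4 spellings of the letters that E2F factors are known to bind, which do not cover every form of the site. RefSeq promoters (GRCh38.p14, 250 bases before to 50 bases after a transcription start, 300 bases each) were matched by symbol for 42 of the 49 genes, and CCNE2, GINS4, MCM4, MCM5, POLD3, RPA2 and RPA3 had no entry. The letters searched on both strands were TTTCCCGC, TTTCGCGC, TTTGCCGC and TTTGGCGC, all of which can overlap a GC-rich stretch. At least 1 of them stood in a promoter of 22 of the 42 genes (52.4%), against 3.99% of the 27305 genes in the RefSeq table. MCM6 held 4 such matches, as overlapping pairs on opposite strands, and MCM2 held 2, as 1 overlapping pair of this kind. In 1 promoter each of MCM3, MCM7 and E2F1 there were 2 that did not overlap. The CCAAT box letters (CCAAT, both strands) were in 26 of the 42 genes (61.9%) against 39.7% of all genes, and the CHR letters of genes expressed in G2 and mitosis (TTTGAA, both strands) were in 1 of the 42 (2.38%) against 18.2%. The median GC content of the promoters was 67.3%, against 58.7% for all promoters of the table. The 4 promoters below are shown because their genes were among those farthest from mono-culture in the comparisons that follow and hold E2F-type letters, which are in capitals. They are written in the direction of transcription. The sites are CLSPN (chr1:35769929-35770228, minus strand), CDT1 (chr16:88803539-88803838, plus strand), CDC6 (chr17:40287629-40287928, plus strand) and TYMS (chr18:657403-657702, plus strand).
CLSPN: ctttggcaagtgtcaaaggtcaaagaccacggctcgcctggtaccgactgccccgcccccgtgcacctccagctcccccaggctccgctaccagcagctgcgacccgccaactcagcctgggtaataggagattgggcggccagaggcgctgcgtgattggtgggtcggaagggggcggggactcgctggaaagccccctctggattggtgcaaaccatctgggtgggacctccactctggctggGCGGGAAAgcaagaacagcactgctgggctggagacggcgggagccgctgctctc
CDT1: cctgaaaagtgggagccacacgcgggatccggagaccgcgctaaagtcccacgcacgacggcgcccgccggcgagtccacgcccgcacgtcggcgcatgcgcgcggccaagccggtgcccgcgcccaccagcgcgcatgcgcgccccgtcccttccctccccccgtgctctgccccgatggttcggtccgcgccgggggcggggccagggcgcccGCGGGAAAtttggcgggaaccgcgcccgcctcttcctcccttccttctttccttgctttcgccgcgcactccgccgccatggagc
CDC6: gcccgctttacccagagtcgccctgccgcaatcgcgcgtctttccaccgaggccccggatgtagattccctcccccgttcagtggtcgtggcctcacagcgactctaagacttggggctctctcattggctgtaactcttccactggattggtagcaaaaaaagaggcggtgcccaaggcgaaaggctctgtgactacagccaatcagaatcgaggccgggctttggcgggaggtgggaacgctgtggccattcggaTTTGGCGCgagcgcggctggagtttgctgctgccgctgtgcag
TYMS: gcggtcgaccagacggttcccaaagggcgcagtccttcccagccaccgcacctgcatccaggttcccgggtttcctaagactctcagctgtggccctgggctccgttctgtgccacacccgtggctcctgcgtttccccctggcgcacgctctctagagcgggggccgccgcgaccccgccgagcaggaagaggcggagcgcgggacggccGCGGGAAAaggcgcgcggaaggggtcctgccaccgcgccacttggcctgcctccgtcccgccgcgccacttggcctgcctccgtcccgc
In CLSPN, CDT1 and TYMS the capitals are the reverse complement of TTTCCCGC, and in CDC6 they are TTTGGCGC on the transcribed-direction strand. Among the genes with large differences, MCM10, POLD2, RRM2 and CDC45 held none of these 4 spellings in their windows, which does not show that an E2F site is absent. A match describes the letters only.

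The first question was whether THP1 cells that shared medium with ECs differed in replication gene RNA from THP1 cells alone. Nearly all replication genes were slightly higher in each co-culture, and no single gene passed the test in the fit with group as the only term. The log2 fold change against mono-culture was positive for 47 of 49 genes with control ECs, where 50.7% of all 25873 tested genes were positive. It was positive for 46 of 49 with senECs (48.0% of all tested genes) and for 48 of 49 with EGCG-treated senECs (49.6%). The median log2 fold change of the 49 genes was 0.13 for control ECs (9.06% higher), 0.15 for senECs (11.3% higher) and 0.16 for EGCG-treated senECs (12.1% higher), against medians of 0.01, -0.02 and -0.00 over all tested genes. The 3 comparisons use the same 3 mono-culture libraries, so they are not independent of each other. Nor are the 49 genes, since the RNA of most of them follows the share of cells in or near S phase. A library that is low or high in that share can move many of the signs together. Counts of replication genes, here and below, are therefore not counts of independent observations. All 49 genes average more than 10 CPM. Of the 9351 tested genes that did so, 52.9% had a higher mean CPM with control ECs than in mono-culture, 60.0% with senECs and 58.0% with EGCG-treated senECs.

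By edgeR's quasi-likelihood test with Benjamini-Hochberg adjustment over all tested genes, 0 of the 49 replication genes were called at an adjusted p under 0.05 in any of the 3 comparisons with mono-culture, where 0.143% of all tested genes were called for control ECs, 0.309% for senECs and 0.213% for EGCG-treated senECs. DESeq2 called 0 of the 49 as well, and 0.464%, 1.34% and 0.889% of all tested genes in the same order. At an unadjusted p under 0.05, edgeR gave 5 replication genes with control ECs (6.52% of all tested genes), 9 with senECs (11.0%) and 12 with EGCG-treated senECs (8.58%), all of them higher than in mono-culture. The share is larger among well-covered genes. In an edgeR fit of the 13903 genes with at least 10 counts in every library, 1160, 2251 and 1611 had such a p, in the same order. In the fit of all tested genes, the smallest adjusted p of the 49 was 0.357 (control ECs), 0.197 (senECs) and 0.297 (EGCG-treated senECs). The precision of the single genes was high enough to bound the differences, since the 95% interval of the fold change lay within 1.5-fold in either direction for 49, 48 and 49 of the 49 genes. POLA2 was the exception with senECs, where its interval ran from -0.02 to 0.59 on the log2 scale, just past that limit. With replicate number as a further term, an alternative fit, edgeR called CLSPN with control ECs (1.81% of all tested genes) and no other of the 49. With numbers 3 and 5 joined it called CLSPN with control ECs (1.55%) and CDT1 with senECs (5.44%). With EGCG-treated senECs that fit called CDT1, RRM2 and CLSPN (3.02%).

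**Figure D2:**
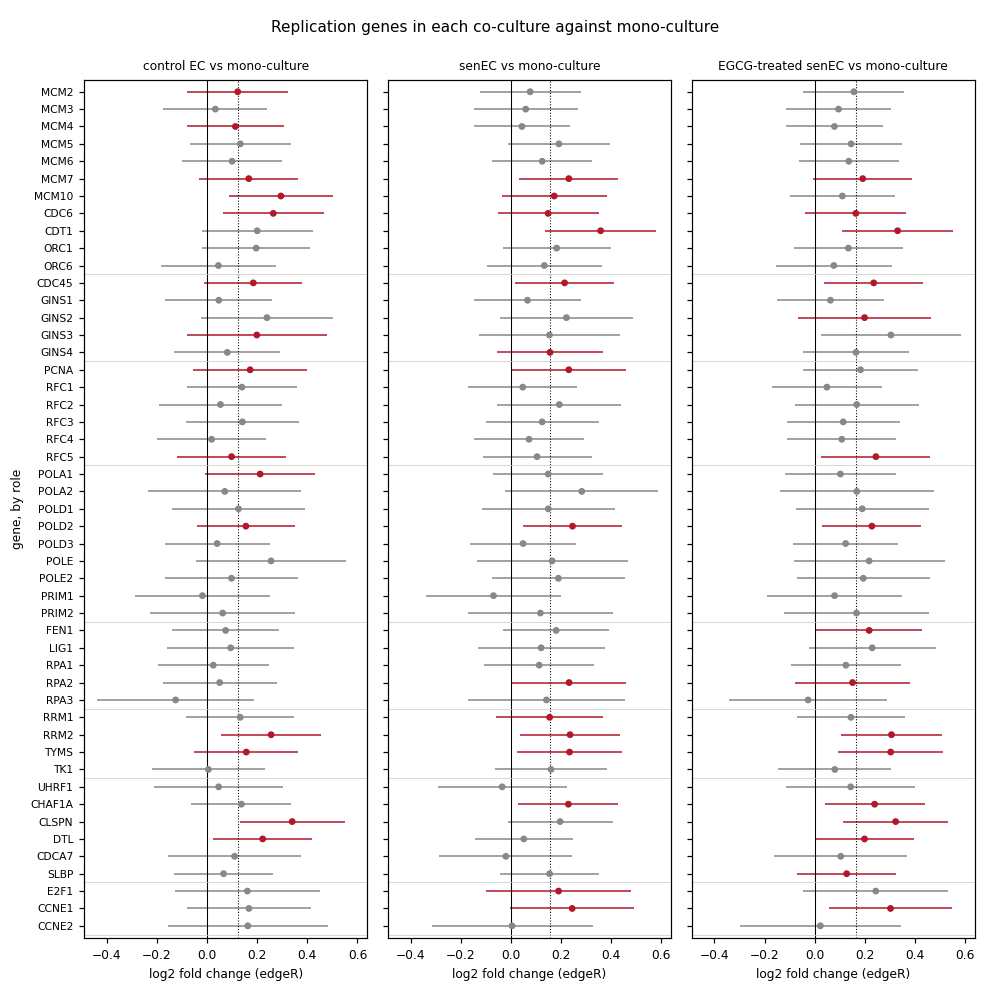
Log2 fold change (edgeR) of each replication gene in each co-culture against THP1 mono-culture, with 95% intervals as bars, the median of the 49 genes as a dotted line, and in red the genes whose 3 co-culture libraries all exceed the 3 mono-culture libraries. Red marks 15, 15 and 16 genes in the panels from left to right, and CDT1 (0.36 with senECs) and CLSPN (0.34 with control ECs) lie farthest to the right.

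Single libraries were also compared without a model. All 3 co-culture libraries lay above all 3 mono-culture libraries for 15 of the 49 genes with control ECs, against 6.25% of all tested genes and 8.57% of those averaging at least 10 CPM. With senECs it was 15 of 49 genes (8.18% and 15.6%), and with EGCG-treated senECs 16 of 49 (6.40% and 10.8%). No replication gene had all 3 co-culture libraries below mono-culture in any of these comparisons, where 6.51%, 8.50% and 7.72% of all tested genes did, and 6.91%, 8.45% and 8.03% of those averaging at least 10 CPM. For 6 genes, MCM7, CDC6, CDC45, POLD2, RRM2 and TYMS, all 9 co-culture libraries lay above all 3 mono-culture libraries. That is 12.2% of the replication genes, against 1.77% of all tested genes and 4.04% of those averaging at least 10 CPM. For 0 of the 49 did all 9 lie below mono-culture (1.64% and 2.37%). Because the replication genes can move together, the all-gene shares describe the background and do not give a test of these counts. The mean over the 9 co-culture libraries of each of the 6 was 1.14 times (CDC6) to 1.20 times (RRM2) the mono-culture mean.

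Licensing factors were higher in all 3 comparisons for each of the 11 genes of the group, with median log2 fold changes of 0.13 (control ECs), 0.15 (senECs) and 0.14 (EGCG-treated senECs). CDT1 was measured at 96.98, 92.2 and 79.5 CPM in mono-culture, 112, 100.2 and 95.9 CPM with control ECs, 114, 106 and 124 CPM with senECs and 122, 107 and 109 CPM with EGCG-treated senECs. Every senEC and EGCG-treated senEC library exceeded the highest mono-culture library, while control EC replicate 3 fell inside the mono-culture range. CDT1, which brings the MCM ring to origins and is destroyed once S phase begins, showed the largest difference of the 49 genes with senECs (log2 fold change 0.36, standard error 0.11, edgeR adjusted p = 0.197) and stood at 0.33 with EGCG-treated senECs (standard error 0.11, adjusted p = 0.321). The mono-culture libraries held 91.9, 95.4 and 84.1 CPM of CDC6, against 112, 103 and 111 CPM with control ECs, 105, 96.7 and 99.3 CPM with senECs and 95.8, 111 and 97.9 CPM with EGCG-treated senECs. CDC6, its partner in loading, was highest with control ECs (log2 fold change 0.26, standard error 0.10), and all 9 co-culture libraries exceeded mono-culture, the closest by less than 1 CPM. For MCM10, the values were 40.5, 36.9 and 38.2 CPM in mono-culture, 45.4, 46.5 and 49.9 CPM with control ECs, 43.6, 43.6 and 43.2 CPM with senECs and 39.1, 45.1 and 40.6 CPM with EGCG-treated senECs. MCM10 was separated from mono-culture with control ECs and with senECs, but 1 EGCG-treated senEC library lay inside the mono-culture range and its log2 fold change there was 0.11, against 0.29 with control ECs (standard error 0.10, adjusted p = 0.545).

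Of the 6 ring subunits, MCM7 alone was separated from mono-culture in all 3 co-cultures. MCM7 transcripts came to 442, 421 and 399 CPM in mono-culture, 486, 453 and 477 CPM with control ECs, 479, 459.7 and 543 CPM with senECs and 497, 480.3 and 465 CPM with EGCG-treated senECs. Its log2 fold changes were 0.17 (control ECs), 0.23 (senECs) and 0.19 (EGCG-treated senECs), and the same order is kept in what follows, with senEC replicate 5 the highest library. MCM3 was measured at 512, 476 and 425 CPM in mono-culture, 524, 458 and 464 CPM with control ECs, 507, 459 and 507 CPM with senECs and 512, 520.0 and 478 CPM with EGCG-treated senECs. MCM3, the ring subunit with the most RNA per length, overlapped mono-culture in every co-culture, with log2 fold changes of 0.03, 0.06 and 0.10. The other 4 ring subunits had log2 fold changes between 0.04 and 0.19.

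Helicase activation genes were also positive throughout, 5 of 5 in each comparison, with medians of 0.18, 0.16 and 0.20. The mono-culture libraries held 77.7, 73.3 and 74.97 CPM of CDC45, against 85.97, 82.4 and 88.4 CPM with control ECs, 83.98, 82.9 and 95.3 CPM with senECs and 91.02, 83.5 and 91.5 CPM with EGCG-treated senECs. CDC45, which completes the CMG helicase, had no overlap between mono-culture and any co-culture, and its log2 fold changes were 0.18, 0.21 and 0.24 (standard error 0.09 in each). The 4 GINS genes lay between 0.05 and 0.30.

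The clamp and its loader were positive for 6 of 6 genes in each comparison, with medians of 0.12, 0.11 and 0.14. For PCNA, the values were 95.2, 104 and 96.4 CPM in mono-culture, 108, 106 and 119 CPM with control ECs, 106, 107 and 134 CPM with senECs and 102, 122 and 111 CPM with EGCG-treated senECs. PCNA did not overlap mono-culture with control ECs or senECs, and EGCG-treated senEC replicate 1 lay just inside the mono-culture range. RFC5 transcripts came to 46.9, 49.04 and 45.3 CPM in mono-culture, 49.2, 49.2 and 52.8 CPM with control ECs, 55.2, 49.2 and 47.4 CPM with senECs and 58.7, 49.8 and 58.8 CPM with EGCG-treated senECs. RFC5, a small subunit of the clamp loader, overlapped mono-culture with senECs (0.10), was just above it with control ECs (0.10) and stood farthest from it with EGCG-treated senECs (0.24, standard error 0.10).

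Polymerase and primase genes were positive for 8, 8 and 9 of 9, with medians of 0.10, 0.15 and 0.17. POLD2 was measured at 148, 144 and 147 CPM in mono-culture, 165, 166 and 158 CPM with control ECs, 161, 167 and 193 CPM with senECs and 182, 168 and 165 CPM with EGCG-treated senECs. POLD2, whose mono-culture libraries differed by the smallest factor of the 49 genes, was separated from mono-culture throughout, since every co-culture library exceeded all 3, with log2 fold changes of 0.15, 0.25 and 0.23. The mono-culture libraries held 26.3, 26.3 and 19.8 CPM of PRIM1, against 24.2, 21.5 and 25.8 CPM with control ECs, 24.1, 22.7 and 22.2 CPM with senECs and 25.8, 25.4 and 25.2 CPM with EGCG-treated senECs. PRIM1, the catalytic primase subunit, was -0.02, -0.07 and 0.08, all within the spread of the mono-culture libraries, of which replicate 3 was the lowest of all 12. For POLA2, the values were 16.4, 14.8 and 13.5 CPM in mono-culture, 16.1, 16.7 and 14.1 CPM with control ECs, 16.9, 16.3 and 21.3 CPM with senECs and 18.4, 14.9 and 16.9 CPM with EGCG-treated senECs. Of its 12 values senEC replicate 5 was the highest, and the log2 fold change with senECs was 0.28 (standard error 0.15).

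Genes of flap removal, ligation and single-strand binding were positive for 4, 5 and 4 of 5, with medians of 0.05, 0.14 and 0.15. FEN1 transcripts came to 137, 156 and 142 CPM in mono-culture, 140.5, 151 and 166 CPM with control ECs, 153, 161 and 179 CPM with senECs and 160.3, 181 and 164 CPM with EGCG-treated senECs. FEN1, which removes the 5′ flaps of lagging-strand fragments, was separated from mono-culture with EGCG-treated senECs only (0.22, standard error 0.10), while control ECs gave 0.07. RPA2 was measured at 50.5, 48.7 and 50.9 CPM in mono-culture, 50.4, 50.6 and 54.4 CPM with control ECs, 56.2, 51.2 and 68.96 CPM with senECs and 54.5, 54.6 and 57.6 CPM with EGCG-treated senECs. RPA2, the regulatory subunit of RPA, was at 0.23 with senECs, where replicate 5 stood well above replicates 1 and 2. The mono-culture libraries held 32.1, 42.7 and 31.1 CPM of RPA3, against 35.2, 28.4 and 33.5 CPM with control ECs, 34.6, 35.8 and 46.6 CPM with senECs and 30.8, 40.7 and 32.6 CPM with EGCG-treated senECs. RPA3, the smallest subunit, was the gene with the lowest value against mono-culture, -0.13 with control ECs (95% interval -0.44 to 0.19), and mono-culture replicate 2 and senEC replicate 5 were its highest libraries.

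Nucleotide supply was the role with the largest median with senECs (0.20), and 4 of 4 genes were positive in each comparison. For RRM2, the values were 124, 134 and 122 CPM in mono-culture, 138, 154 and 163 CPM with control ECs, 142, 149 and 156 CPM with senECs and 148, 159 and 164 CPM with EGCG-treated senECs. RRM2, the small subunit of ribonucleotide reductase whose synthesis is tied to S phase, had all 9 co-culture libraries above mono-culture, and its log2 fold changes were 0.26, 0.24 and 0.31 (adjusted p = 0.303 by edgeR for the last). TYMS transcripts came to 55.4, 57.98 and 52.3 CPM in mono-culture, 63.9, 58.8 and 61.96 CPM with control ECs, 63.8, 62.1 and 68.96 CPM with senECs and 73.7, 69.3 and 61.7 CPM with EGCG-treated senECs. TYMS, which makes thymidylate, was highest with EGCG-treated senECs (0.30, standard error 0.10, adjusted p = 0.339). TK1 was measured at 144, 149 and 129 CPM in mono-culture, 145, 139 and 139 CPM with control ECs, 145, 144 and 182 CPM with senECs and 159, 152 and 135 CPM with EGCG-treated senECs. TK1, the salvage enzyme of the same nucleotide, overlapped mono-culture in all 3 co-cultures and was 0.01 with control ECs.

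The chromatin and fork protection genes were positive for 6, 4 and 6 of 6, with medians of 0.12, 0.10 and 0.17. The mono-culture libraries held 89.5, 76.8 and 78.6 CPM of CLSPN, against 98.5, 104 and 107 CPM with control ECs, 101, 95.1 and 84.5 CPM with senECs and 95.8, 106 and 105 CPM with EGCG-treated senECs. CLSPN encodes claspin, which travels with the fork and passes the checkpoint signal from ATR to CHK1, and showed the largest difference of the 49 genes with control ECs (log2 fold change 0.34, standard error 0.10, adjusted p = 0.357). The value with EGCG-treated senECs was 0.32 (standard error 0.10, adjusted p = 0.297), whereas with senECs it was 0.20 and senEC replicate 5 lay inside the mono-culture range. For DTL, the values were 114, 109 and 94.97 CPM in mono-culture, 123, 124 and 125 CPM with control ECs, 112, 107 and 110.4 CPM with senECs and 117, 129 and 119.7 CPM with EGCG-treated senECs. DTL, the receptor subunit of the ligase that destroys CDT1 in S phase, was above every mono-culture library with control ECs and EGCG-treated senECs and overlapped mono-culture with senECs (0.05). UHRF1 transcripts came to 247, 236 and 203 CPM in mono-culture, 268, 238 and 203 CPM with control ECs, 255, 220.1 and 195 CPM with senECs and 278, 249 and 231 CPM with EGCG-treated senECs. UHRF1, which brings DNMT1 to newly replicated DNA, was -0.03 with senECs and overlapped mono-culture in all 3 co-cultures. SLBP was measured at 139, 146 and 128 CPM in mono-culture, 139.6, 141 and 152 CPM with control ECs, 149, 143 and 168 CPM with senECs and 149.6, 152 and 149.7 CPM with EGCG-treated senECs. SLBP, needed for histone mRNA, was 0.07, 0.15 and 0.13 against mono-culture, separated from it with EGCG-treated senECs alone.

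The G1/S regulators were positive for 3 of 3 genes in each comparison, with medians of 0.16, 0.19 and 0.24. The mono-culture libraries held 64.8, 62.1 and 55.9 CPM of E2F1, against 82.6, 61.5 and 60.1 CPM with control ECs, 71.2, 66.1 and 71.1 CPM with senECs and 88.3, 59.9 and 68.1 CPM with EGCG-treated senECs. E2F1, a transcription factor for most of the genes above, had its highest libraries under replicate number 1 in control ECs and EGCG-treated senECs, and its log2 fold changes of 0.16, 0.19 and 0.24 each had a standard error of 0.14. CCNE1, which encodes cyclin E1, was 0.17, 0.24 and 0.30, and CCNE2 was 0.16, 0.00 and 0.02.

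**Figure D3:**
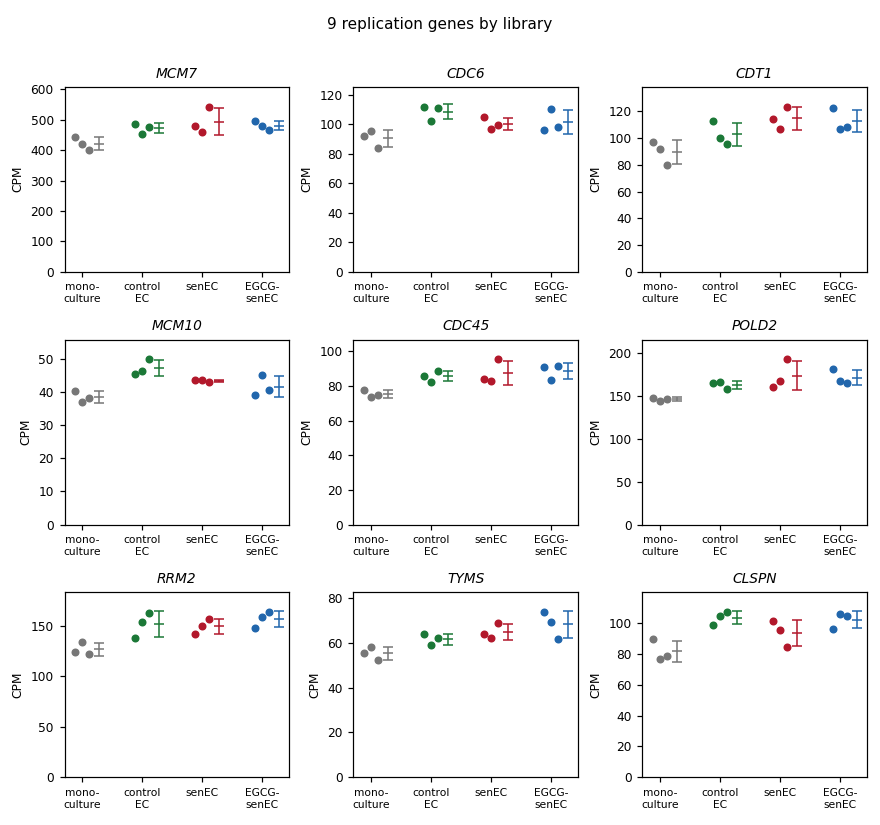
CPM of 9 replication genes in each library (points, axes from 0), with the mean and SD of the 3 libraries of a group as bars beside them. For MCM7, CDC6, CDC45, POLD2, RRM2 and TYMS the 9 co-culture points all lie above the 3 mono-culture points, and for CDT1, MCM10 and CLSPN at least 1 co-culture point falls within the mono-culture range.

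The small shift rested in part on 1 mono-culture library. The lowest of the 12 libraries was a mono-culture library for 41 of the 49 genes, and of these it was replicate 3 for 28, replicate 2 for 10 and replicate 1 for 3. The summed level of the 49 genes was 6045, 5806 and 5400 CPM in mono-culture, 6412, 6105 and 6293 CPM with control ECs, 6404, 6007 and 6559 CPM with senECs and 6526, 6408 and 6315 CPM with EGCG-treated senECs. Every control EC and EGCG-treated senEC library exceeded the highest mono-culture library in this TMM-scaled sum, and senEC replicate 2 did not. With mono-culture replicate 3 left out, 38 of 49 genes were positive with control ECs (52.2% of all tested genes), 40 with senECs (48.96%) and 44 with EGCG-treated senECs (49.6%), and the medians were 0.08, 0.11 and 0.11. At the other end, senEC replicate 5 was the highest library for 18 of the 49 genes. Without it the median with senECs was 0.10 and 45 of 49 genes were positive. In senEC replicate 5 the TMM factor was the lowest of the 12 (0.912) and ribosomal protein genes took the largest share of counts (6.01%, against 4.07% in the lowest library). As a plain share of a library's counts, with no TMM factor, the 49 genes took 0.630%, 0.594% and 0.544% in mono-culture, 0.663%, 0.629% and 0.614% for control ECs, 0.649%, 0.595% and 0.598% for senECs and 0.670%, 0.613% and 0.629% after EGCG, so 3 of the 9 co-culture libraries, those numbered 1, exceeded the highest mono-culture library and the other 6 lay inside the mono-culture range. That highest mono-culture library is itself numbered 1. Set against the mono-culture library of its own number, every co-culture library numbered 1, 2 or 3 was higher. The closest was senEC replicate 2, at 0.595% against 0.594%. Mono-culture has no library numbered 5, and the labels do not say what the numbers mark. In an edgeR fit on total counts alone, chosen after the data were seen, the median with senECs was 0.08 and 38 of 49 genes were positive, with an all-gene median of -0.09 and 39.3% of all tested genes positive. The same fit gave medians of 0.11 and 0.12 with control ECs and EGCG-treated senECs, with 46 and 47 genes positive. The part of library composition in the result was not tested.

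**Figure D4:**
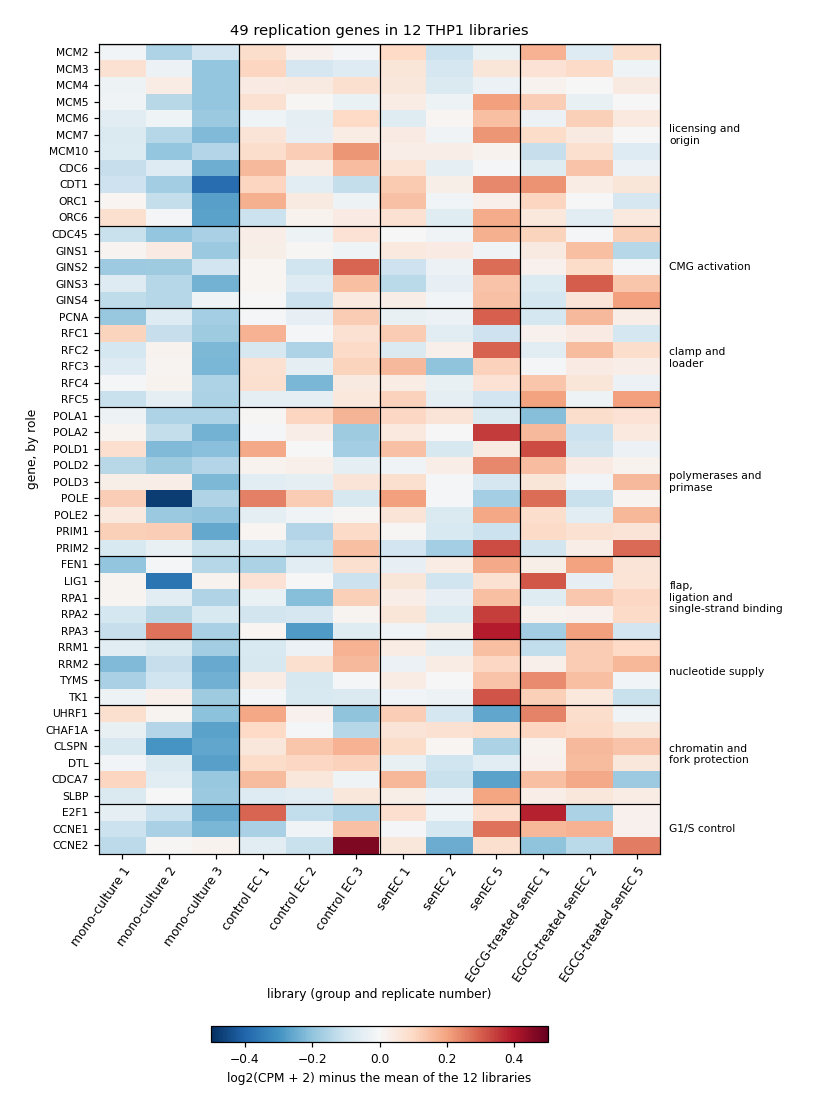
Level of each of the 49 replication genes in each of the 12 libraries, as log2(CPM + 2) minus the gene's mean over the 12 libraries, with genes ordered by role and lines between the groups (blue below and red above that mean). The column of mono-culture replicate 3 is blue for most genes and the lowest library for 28 of 49, and senEC replicate 5 is the highest for 18.

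The second question was whether the state of the ECs, control, senescent or EGCG-treated, mattered for these genes. The medians between co-cultures were smaller than those against mono-culture, and no gene passed the test. With senECs against control ECs, 31 of 49 log2 fold changes were positive (49.2% of all tested genes) with a median of 0.03. EGCG-treated senECs against control ECs gave 36 positive values (50.0% of all tested genes) and a median of 0.06. EGCG-treated senECs against senECs gave 30 (49.9%) and a median of 0.01. A single library could turn the sign of 2 of these medians. For senECs against control ECs it was -0.0046 when senEC replicate 5 was left out, -0.0033 when control EC replicate 2 was and 0.073 when senEC replicate 2 was. For EGCG-treated senECs against senECs it was -0.017 with 19 positive genes when senEC replicate 2 was dropped, and 0.059 with 42 positive genes when senEC replicate 5 was. Of the tested genes averaging at least 10 CPM, 60.4%, 59.1% and 45.0% had the higher mean CPM in the same 3 comparisons. On total counts without the TMM factor the median for senECs against control ECs turned to -0.04, with 17 of 49 genes positive and an all-gene median of -0.07. In the fit with group as the only term, edgeR called 0 of the 49 genes in each of the 3 comparisons, and 0 of all 25873 genes. There 0 of the 49 had an unadjusted p under 0.05, where 6.61%, 4.55% and 2.22% of all tested genes did. DESeq2 also called 0 of all tested genes in each. With replicate number as a further term, edgeR called 153, 34 and 13 of all tested genes (0.591%, 0.131% and 0.0502%), and 0 of the 49. With numbers 3 and 5 joined it called 1.04%, 0.232% and 0.00387%, and again 0 of the 49. The 95% interval of the fold change lay within 1.5-fold for all 49 genes in all 3 comparisons, so a larger difference between any pair of co-cultures lay outside the interval of every gene.

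The genes with the smallest p in each direction are given here, none of which passed the test. DTL had the smallest p for senECs against control ECs (log2 fold change -0.17, 95% interval -0.37 to 0.03, edgeR adjusted p = 0.728). Its 3 senEC libraries, 107 to 112 CPM, lay below the 3 control EC libraries, 123 to 125 CPM (means 109.8 ± 2.36 and 124 ± 0.958 CPM, SD, n = 3), and the EGCG-treated senEC libraries lay above the senEC libraries again (0.15, 95% interval -0.05 to 0.34). CLSPN stood at -0.14 for senECs against control ECs (95% interval -0.35 to 0.07) and at 0.13 for EGCG-treated senECs against senECs, with overlapping libraries in both. MCM10 was lower than with control ECs in all 3 senEC and all 3 EGCG-treated senEC libraries, with log2 fold changes of -0.12 and -0.18 (95% interval of the latter -0.39 to 0.02). In the other direction, RPA3 was 0.27 for senECs against control ECs (95% interval -0.05 to 0.58) and RPA2 was 0.18, both with senEC replicate 5 as the highest library. CDC6 stood at -0.10, TYMS at 0.15 and RFC5 at 0.15 for EGCG-treated senECs against control ECs. For EGCG-treated senECs against senECs, UHRF1 was 0.18, RPA3 -0.17 and POLA2 -0.11.

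Groups without overlap were few between co-cultures. All 3 senEC libraries were below the control EC libraries for 2 genes, DTL and MCM10 (5.66% of all tested genes, 5.04% of those averaging at least 10 CPM), and above them for 0 (5.31% and 8.11%). EGCG-treated senECs exceeded control ECs without overlap for 1 gene, RPA2 (4.04% and 5.11%), and were below them for 1, MCM10 (5.45% and 5.39%). Against senECs they were higher for 2 genes, DTL and PRIM1 (3.17% and 1.10%), and lower for 0 (2.31% and 1.20%). By role, the medians that reached 0.10 in size were those of flap, ligation and single-strand binding against control ECs (0.11 for the senEC and 0.10 for the EGCG-treated senEC libraries, 5 of 5 genes positive in each) and the chromatin and fork protection genes, at -0.11 for senECs against control ECs (2 of 6 positive) and 0.13 for EGCG-treated senECs against senECs (5 of 6 positive). None of their genes passed the test.

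**Figure D5:**
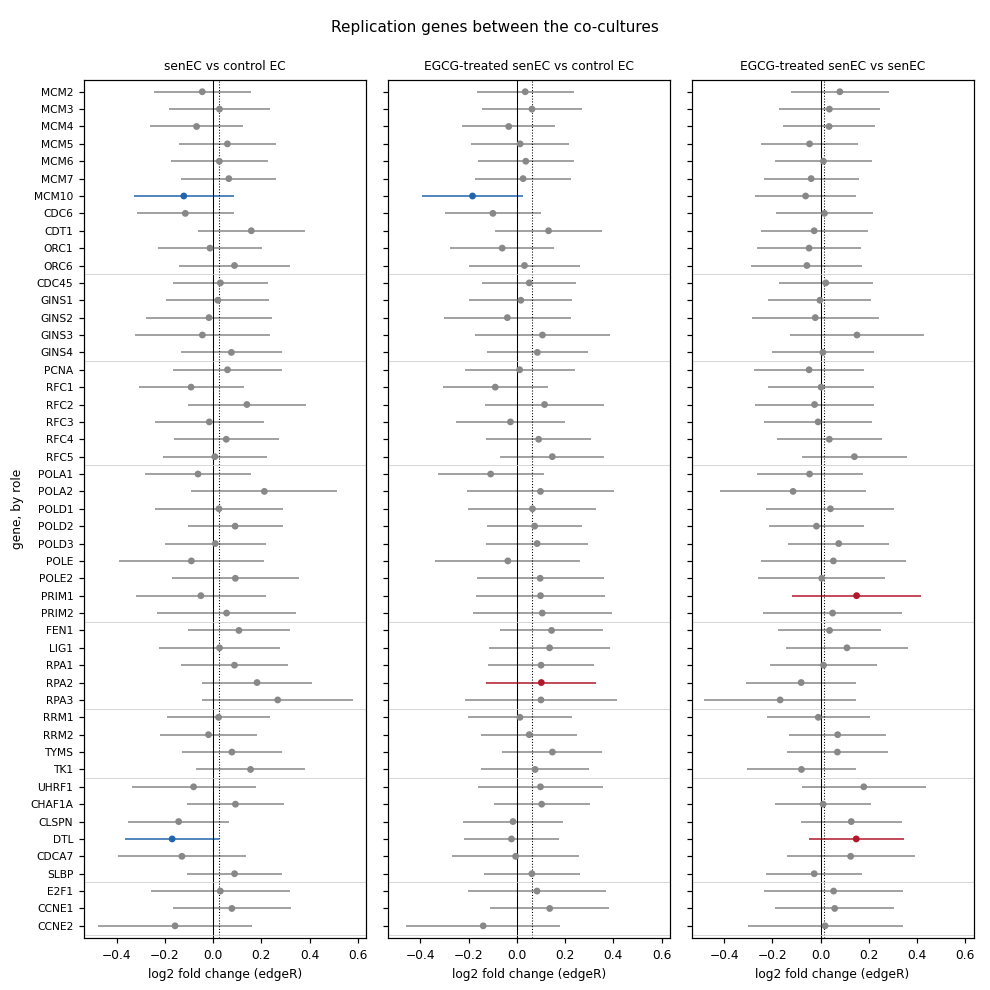
Log2 fold change (edgeR) of each replication gene between the co-cultures, with 95% intervals as bars and the median of the 49 genes as a dotted line. Red and blue mark genes whose 3 libraries of the first group all lie above or below those of the second, which are DTL and MCM10 (lower) in the first panel, RPA2 (higher) and MCM10 (lower) in the second, and DTL and PRIM1 (higher) in the third.

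The spread of each gene was taken within and between groups. The within-group SD of log2 CPM had a median of 0.11 over the 49 genes and ran from 0.07 (MCM10) to 0.22 (CCNE2), and the SD of the 4 group means had a median of 0.09, from 0.03 (GINS1) to 0.16 (CDT1). A mean of 3 libraries varies less than a single library, so the 2 SDs are not on a common footing. The highest of the 12 libraries was 1.21 times the lowest for MCM4 and 1.70 times for POLE, whose extremes were mono-culture replicate 2 and EGCG-treated senEC replicate 1.

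Libraries were also compared by replicate number, whose meaning the labels do not give. In a fit with group and replicate number as terms, edgeR called 3 of the 49 genes for number 2 against 1, where 4.88% of all tested genes were called, 3 for number 3 against 1 (3.80%) and 4 for number 5 against 1 (8.16%). These counts are near the all-gene shares and are not a result about the replication genes, and DESeq2 called 3, 2 and 3. Of the 49 log2 fold changes, 17 were positive for number 2 (51.3% of all tested genes), 16 for number 3 (48.7%) and 26 for number 5 (45.2%). The genes were named after their values were seen. POLE, the catalytic subunit of polymerase ε, fell by 0.33 on the log2 scale for number 2 (edgeR adjusted p = 0.00131) and by 0.34 for number 5 (adjusted p = 0.0202). POLD1, the catalytic subunit of polymerase δ, fell by 0.29 for number 2 and by 0.35 for number 3 (adjusted p = 0.00897 and 0.0256). E2F1 fell by 0.29 and by 0.36 in the same contrasts (adjusted p = 0.0172 and 0.0375). In the 4 libraries of number 1, POLE had 253 to 282 CPM, POLD1 172 to 203 CPM and E2F1 64.8 to 88.3 CPM. In those of number 2, POLE had 167 to 254 CPM, POLD1 139 to 162 CPM and E2F1 59.9 to 66.1 CPM. UHRF1 fell by 0.36 for number 3 and by 0.31 for number 5 (adjusted p = 0.0179 and 0.0349). CDCA7, a zinc finger protein induced at the G1/S transition, fell by 0.40 for number 5 (adjusted p = 0.00783), and PRIM2, the large primase subunit, rose by 0.41 (adjusted p = 0.0137). Both number 5 libraries held 46.3 to 47.8 CPM of PRIM2, above the 35.1 to 35.6 CPM of the number 1 libraries. Number 3 occurs only in mono-culture and control ECs and number 5 only in senECs and EGCG-treated senECs, so the last 2 contrasts each rest on 2 libraries. Leaving out 1 library at a time gave 1 to 4, 0 to 5 and 1 to 6 called genes in the 3 contrasts, with 0 for number 3 without either control EC replicate 1 or control EC replicate 3. Over the 16 alternatives, the call of POLE was lost in 2 for number 2 (adjusted p up to 0.170) and in 8 for number 5 (up to 0.300). That of POLD1 was lost in 6 for number 2 and in 6 for number 3 (up to 0.151 and 0.751), and that of E2F1 in 4 and in 8 (up to 0.343 and 0.678). UHRF1 lost its call in 4 for number 3 and in 6 for number 5 (up to 0.542 and 0.222), PRIM2 in 3 (up to 0.218) and CDCA7 in 1 (0.122).

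The wider replication programme was described with 6 lists of 97 other genes, 95 of which had enough counts: licensing and firing factors, fork and lagging-strand genes, nucleotide supply, chromatin replication, G1/S control, and replication checkpoint and fork repair. By edgeR, 0 of the 95 were called in either direction in each of the 6 group comparisons. DESeq2 called 2 of them in 3 tests against mono-culture, SSRP1, a subunit of the histone chaperone FACT, with senECs (log2 fold change 0.32, DESeq2 adjusted p = 0.00670) and EGCG-treated senECs (0.28, DESeq2 adjusted p = 0.0397), and CDK4, a G1 kinase, with senECs (0.33, DESeq2 adjusted p = 0.0148). Of all tested genes DESeq2 called 1.34% with senECs and 0.889% with EGCG-treated senECs against mono-culture. Positive values against mono-culture were 77 of 95 (control ECs), 65 (senECs) and 72 (EGCG-treated senECs), where 50.7%, 48.0% and 49.6% of all tested genes were positive. Of the tested genes averaging at least 10 CPM, a level the 95 were not held to, 52.9%, 60.0% and 58.0% had the higher mean CPM. At an unadjusted p under 0.05 edgeR gave 6, 19 and 12 of the 95, against 6.52%, 11.0% and 8.58% of all tested genes. Between the co-cultures the numbers of positive values were 48, 51 and 52 of 95 for senECs against control ECs, EGCG-treated senECs against control ECs and EGCG-treated senECs against senECs. Of all tested genes 49.2%, 50.0% and 49.9% were positive there, and 60.4%, 59.1% and 45.0% of those averaging at least 10 CPM had the higher mean CPM. At an unadjusted p under 0.05 there were 5, 2 and 0 of the 95, against 6.61%, 4.55% and 2.22% of all tested genes. The other chromatin replication genes, which include DNMT1 and the histone chaperones, were positive for 10, 9 and 10 of 10 against mono-culture, with medians of 0.08, 0.09 and 0.13. The other licensing and firing factors were positive for 17, 14 and 13 of 19 (medians 0.08, 0.08 and 0.07) and the other G1/S control genes for 21, 17 and 20 of 25 (0.13, 0.07 and 0.11). The G1/S control list mixes activators of S phase entry with inhibitors of it, such as CDKN1A, CDKN1B and RB1. Its positive values, and the totals over the 95 genes that include them, therefore have no single direction for S phase entry. The checkpoint and fork repair genes were positive for 14, 11 and 13 of 18, the other fork genes for 9, 8 and 9 of 13 and the other nucleotide supply genes for 6, 6 and 7 of 10. As a reference from later in the cell cycle, 17 mitotic genes were positive for 11, 14 and 11 of 17 against mono-culture (medians 0.04, 0.12 and 0.07), and 0 of them were called by edgeR or DESeq2. Of all listed genes, markers included, CD14 alone was called by edgeR, a monocyte surface receptor for LPS that rose by 2.09 on the log2 scale with senECs against mono-culture (standard error 0.42, edgeR adjusted p = 0.0363), from 5.91, 9.91 and 11.0 CPM to 16.6, 32.3 and 65.7 CPM. That call was lost in 7 of the 12 fits that each left out 1 library, namely any mono-culture library, replicate 2 of any of the co-cultures, or senEC replicate 5, and the log2 fold change was 1.44 without senEC replicate 5 (edgeR adjusted p = 0.258). DESeq2 also called CD14 there (DESeq2 adjusted p = 0.0205), and among the monocytic markers it called FCGR1A, the high-affinity IgG receptor, with senECs (log2 fold change 0.53, DESeq2 adjusted p = 0.0411) and EGCG-treated senECs (0.63, DESeq2 adjusted p = 0.0111) against mono-culture, and SPI1, the myeloid transcription factor PU.1, with senECs (0.41, DESeq2 adjusted p = 0.0199). The part of these markers in the shift of the replication genes was not tested.

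Reads of some members may belong in part to other genes. In GENCODE release 29, exons of 21 of the 49 genes overlap exons of another gene, and 8 have a pseudogene of the same name, while 24 have neither. The strand setting of the counting is not given in the sources used here, so reads of overlapping genes on opposite strands cannot be told apart. Of the genes with values above, TYMS (chromosome 18, 657604 to 673578) overlaps TYMSOS and ENOSF1 over 1150 bases and has 2 pseudogenes, CLSPN (chromosome 1, 35720218 to 35769967) overlaps AL354864.1 over 280 bases, RRM2 (chromosome 2, 10120698 to 10131419) overlaps AC007240.1 over 1077 bases and has 3 pseudogenes, and POLA2 (chromosome 11, 65261762 to 65305589) overlaps AP000944.2 over 2012 bases. PCNA (chromosome 20, 5114953 to 5126626) has 3 pseudogenes and POLD2 (chromosome 7, 44114681 to 44124358) has 1. Exons of MCM7, FEN1, RPA3, PRIM1, RFC5 and POLD1 also overlap exons of another gene. FEN1, RFC5 and RPA2 also have pseudogenes of the same name. CDT1 (chromosome 16, 88803213 to 88809258), CDC6 (chromosome 17, 40287633 to 40304657), CDC45 (chromosome 22, 19479459 to 19520612), DTL (chromosome 1, 212035553 to 212107400) and MCM10 (chromosome 10, 13161554 to 13211104) have neither.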

How the data were processed

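Bulk RNA-seq of THP1 cells was analysed in 12 libraries, 3 per group. The values are whole-number counts of reads, 1 row per gene symbol (58735 rows), deposited by the authors without normalization. The submitters' processing notes name HISAT2 and hg38, while the counting program, its strand setting and its annotation are not given in the sources used here. The table holds 4 further columns that match no described sample, and they were not used. Total counts ranged from 15439836 to 22092600, and 3 counts, the limit a count of 0 allows, correspond to 0.132 to 0.191 CPM (counting error only).

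Genes with at least 10 counts over the 12 libraries (25873) were tested with edgeR 4.0.16 in R 4.3.3 (TMM factors, quasi-likelihood F test, group means over all 12 libraries, Benjamini-Hochberg adjustment over all tested genes, threshold 0.05). Standard errors were derived from the log2 fold change and the F statistic, and 95% intervals use the fit's t distribution. DESeq2 1.42.0, other scalings and filters, the 2 groups alone, leaving out each library and replicate number as a block were the alternatives. Scripts were tested on simulated counts. CPM used TMM library sizes, log2 CPM a pseudocount of 2, and FPKM exon lengths and positions of GENCODE release 29 (GRCh38). Tables and figures used Python 3.11.15 with pandas 2.3.3 and matplotlib 3.10.9.

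The 49 members and all lists were chosen with earlier results of these data known. Values per library were given for members past the threshold in a group comparison or under the block, for the 2 with the smallest p in each direction of a comparison, and for the member with the highest FPKM of each role. MCM7 was added because it separated in all co-cultures. Genes of the other lists were given values only if they passed the threshold in edgeR or DESeq2, and SSRP1, CDK4, FCGR1A and SPI1 were added after their values were seen.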

Additional observations from a re-analysis of the deposited data

How the results depend on the processing

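Library depth left all 49 genes well above the floor, and the standard errors were 0.09 to 0.15 on the log2 scale. The number of called members stayed at 0 in all 6 group comparisons under DESeq2, DESeq2 size factors, total counts without TMM, both count filters, the 2 groups alone, numbers 1 and 2 alone and every leave-one-out fit. The replicate block was the exception. Libraries with the same number tended to deviate together (median correlation 0.380, 0.032 to 0.577, over 14 same-number pairs, against -0.134, -0.560 to 0.534, over 40 others, with 8 of 12 libraries correlating best with a same-number library). Deviations were taken from the group mean and sum to 0 within a group. Positive values for same-number pairs therefore press those of the other pairs down, and -0.134 is not an independent baseline. Number 1 stood at 0.457 to 0.577 and number 2 at 0.032 to 0.336, so not every pair was over 0.1, the level set for treating the numbers as pairs, and the fit without the block was kept. With replicate number as a block, edgeR called 1 member with control ECs against mono-culture (1.81% of all tested genes), CLSPN, at adjusted p = 0.0214. With numbers 3 and 5 joined in the block it called 1 with control ECs (CLSPN, adjusted p = 0.0246, 1.55% of all tested genes), 1 with senECs (CDT1, 0.00599, 5.44%) and 3 with EGCG-treated senECs (CDT1, 0.0202, RRM2, 0.0262, and CLSPN, 0.0263, 3.02%), and it changed no other call. Over the 21 alternatives the adjusted p ran from 0.0214 to 1.0 for CLSPN with control ECs, from 0.00599 to 0.731 for CDT1 with senECs, and from 0.0202, 0.0262 and 0.0263 to 0.764, 0.791 and 0.767 for CDT1, RRM2 and CLSPN with EGCG-treated senECs.

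On total counts without TMM the median was 0.076 for senECs against mono-culture and -0.036 for senECs against control ECs, with 17 positive members in the latter. With numbers 1 and 2 alone the median for senECs against mono-culture was 0.086, and RPA3 in EGCG-treated senECs against senECs turned to 0.013. Both alternatives were chosen after seeing the data. Leaving out 1 library at a time, the median for EGCG-treated senECs against mono-culture ran from 0.11 (without mono-culture replicate 3) to 0.18, and positive members for EGCG-treated senECs against senECs between 19, when senEC replicate 2 was dropped, and 42, when senEC replicate 5 was. Small differences changed sign, with ranges of -0.19 to 0.015 for POLA2 in EGCG-treated senECs against senECs, -0.14 to 0.051 for PRIM1 and -0.21 to 0.035 for RPA3 in control ECs against mono-culture, -0.15 to 0.13 for RPA3 in EGCG-treated senECs and -0.14 to 0.054 for UHRF1 in senECs against mono-culture. For replicate numbers 2, 3 and 5 against 1, called members ran from 1 to 4, 0 to 5 and 1 to 6. The medians for numbers 3 and 5 ran from -0.15 to 0.040 and from -0.038 to 0.11, and positive members for numbers 2 and 3 from 7 to 21 and from 7 to 29. Apart from the blocked fits, the cause of these movements was not tested.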
